A study of Mus musculus with 9 samples.

Results

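The enzymes that write, copy and remove DNA methylation were examined as a family of 8 genes: the methyltransferases Dnmt1, Dnmt3a and Dnmt3b, the hemimethylation readers Uhrf1 and Uhrf2, and the dioxygenases Tet1, Tet2 and Tet3. They were the rows of the read count table whose gene identifier carried one of these symbols, 8 of 35275 identifiers, and all 8 were found and passed the filter on low counts in every comparison. RNA came from megakaryocyte-erythroid progenitors (MEPs) of mouse bone marrow, gated as Lin-ckit+CD34-FcγRII/IIIlo and sorted by the binding of single-chain antibodies (scFvs) to heparan sulfate (HS), a sulfated sugar chain of the cell surface. Each of the 3 groups had 3 libraries. HS3A8-high and HS3A8-low MEPs were the cells of the gate with the higher and the lower binding of the HS3A8 scFv, split at the middle, and the MPB49 control was sorted with an scFv that has no known HS epitope and stands for the whole MEP gate. Each library was made from sorted cells of a gate that holds several kinds of progenitor, and in such bulk samples fewer cells of a type and less RNA per cell cannot be told apart. The study's methods name young adult C57Bl/6 wild-type mice, matched for age and sex, and the labels give no treatment or genotype that differs between the groups. The study's figure legend gives 3 individual mice for HS3A8-low against HS3A8-high MEPs. No source says which libraries share a mouse, and replicate numbers are those of the labels.

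DNA methylation is set by the de novo enzymes DNMT3A and DNMT3B and is copied to the new strand at each round of replication by DNMT1, which UHRF1 guides to hemimethylated CpG sites. TET enzymes oxidise 5-methylcytosine, and the oxidised bases are lost by dilution or are cut out by thymine DNA glycosylase and base excision repair. In blood, DNMT3A and TET2 are best known for their loss in clonal hematopoiesis and myeloid malignancy, and genome-wide loss of methylation accompanies erythroid maturation.

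Library totals ran from 11781637 to 15850037 counts. Levels are given in CPM, the count relative to the library's total, scaled by the TMM method over the 9 libraries, and at this depth 3 counts, the limit that a count of 0 allows, corresponded to between 0.175 and 0.282 CPM. Of the gate's own genes, Kit was measured at 382.3 to 796.3 CPM across the 9 libraries. Cd34 mRNA was found at 28.08, 61.56 and 73.68 CPM in HS3A8-low and at 3.263, 0.8274 and 10.98 CPM in HS3A8-high. The FcγRII/III genes were highest in replicate 3 of both fractions. Fcgr3 was at 0.4393, 0.1504 and 17.79 CPM in HS3A8-high and at 1.287, 2.249 and 43.86 CPM in HS3A8-low. Fcgr2b was at 0.6903, 0.1504 and 7.803 CPM against 2.925, 2.249 and 18.65 CPM. Summed megakaryocyte genes (17) ran from 91.62 to 135.5 CPM in HS3A8-high, from 303.6 to 573.9 CPM in HS3A8-low and from 235.1 to 380.9 CPM in the control. Stem and multipotent progenitor genes (14) summed to 102.6 to 127, 287.3 to 348 and 203.6 to 262.7 CPM in the same order, and T and NK cell genes (12) to 4.589 to 38.22, 205.3 to 257.9 and 58.02 to 134.4 CPM. Libraries that stood apart are named here because they recur in the results. The granulocyte and monocyte list (18 genes, all detected in each group) summed to 2000 CPM in replicate 3 of HS3A8-high and 5117 CPM in replicate 3 of HS3A8-low, against 11.73 to 272.1 CPM in the other 7 libraries. Replicate 1 of the MPB49 control differed most from its own group: the median gene in the longest quintile of transcripts deviated there by -0.46 (log2, from the mean of the 9 libraries) and the median gene in the shortest quintile by 0.55.

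Among the 8 genes, the copying pair was by far the most abundant. Per kilobase of annotated exon, Uhrf1 averaged 118 CPM in HS3A8-high MEPs, 108 CPM in HS3A8-low MEPs and 96.9 CPM in control MEPs, and Dnmt1 averaged 77.6, 62.3 and 58.7 CPM. Uhrf2 (11.7, 12.9 and 12.8 CPM per kilobase) and Dnmt3b (9.21, 9.23 and 7.61) followed. Dnmt3a stood at 2.38, 2.76 and 2.16 CPM per kilobase, beside Tet3 at 2.33, 2.04 and 1.66. The 2 lowest were Tet2 at 0.721, 0.854 and 0.806 and Tet1 at 0.287, 0.432 and 0.296. This order of the means was the same in all 3 groups. Neighbours whose libraries overlapped on this scale were Dnmt3a and Tet3 in every group, Tet2 and Tet1 in HS3A8-low, and both Uhrf1 with Dnmt1 and Tet3 with Tet2 in the control. Against all 34490 identifiers with an exon length, Uhrf1 ranked 580 and Tet1 11500 by mean CPM per kilobase over the 9 libraries. Exon length here is the union over all annotated transcripts, so a gene with long alternative ends is placed lower than its main transcript would be.

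**Figure D1:**
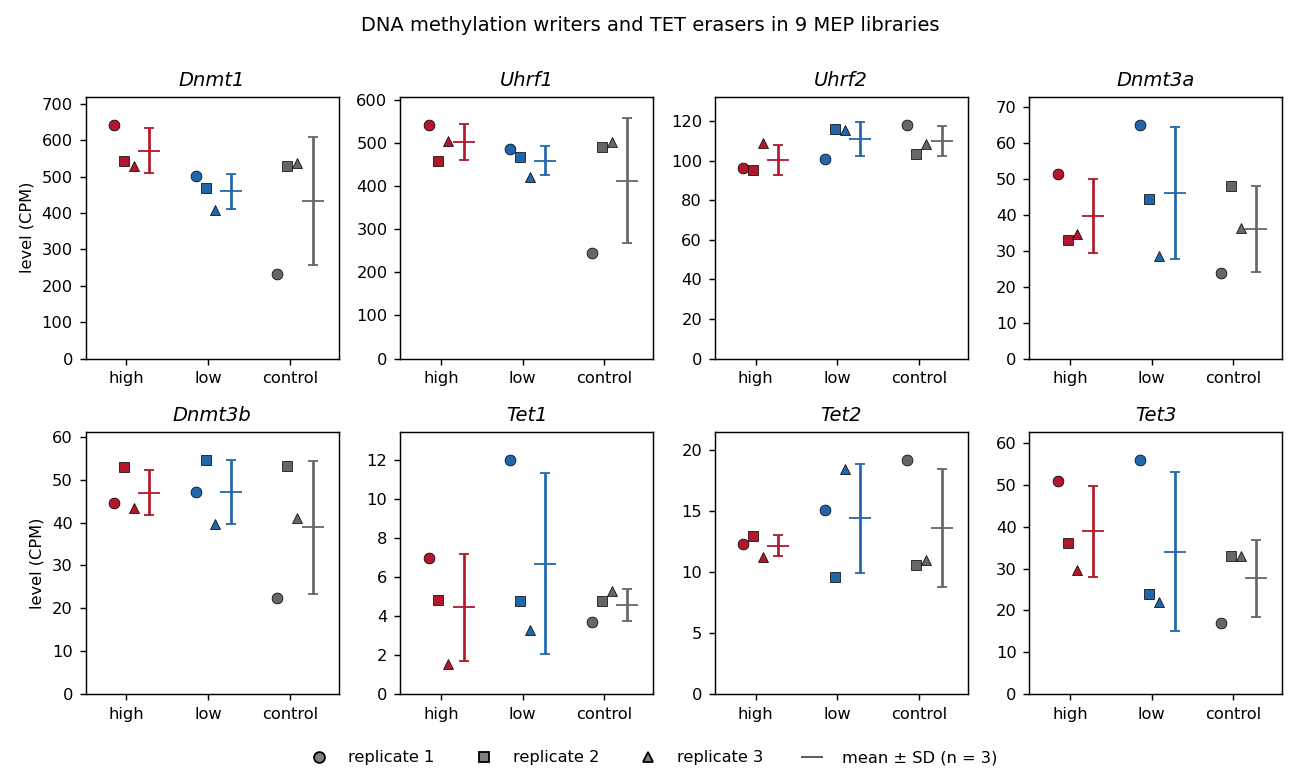
Level of each gene in CPM (y axis, linear from 0) in the 3 groups (high, low and control along the x axis). Symbols mark replicates 1 to 3, and the bars beside them are the mean ± SD of 3 libraries. Dnmt1 is the one gene whose HS3A8-high libraries (529.3 to 643.1 CPM) all lie above its HS3A8-low libraries (408.1 to 502.4 CPM), and control replicate 1 is the lowest library for Dnmt1, Uhrf1, Dnmt3a, Dnmt3b and Tet3.

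Dnmt1, the maintenance methyltransferase (ENSMUSG00000004099, minus strand of chr9:20907209-20959888 in mm10), was measured at 643.1, 543.8 and 529.3 CPM in replicates 1, 2 and 3 of HS3A8-high and at 502.4, 468.1 and 408.1 CPM in those of HS3A8-low. The lowest HS3A8-high library lay above the highest HS3A8-low library, and HS3A8-high was the higher library in 3 of 3 pairs of the same number, by log2 differences of 0.36, 0.22 and 0.38. The means were 572.1 ± 61.9 and 459.5 ± 47.7 CPM (SD, n = 3 each), a ratio of 1.24. The fitted log2 fold change was 0.29 (SE 0.116, 95% interval 0.014 to 0.565) and the adjusted p 0.231 by the quasi-likelihood test of edgeR, so the difference did not pass the threshold of 0.05 over all genes. Libraries of HS3A8-high and HS3A8-low with the same number deviated together, and with the replicate number as a block the change was nearly identical, 0.29, with a smaller SE of 0.0615 (interval 0.139 to 0.439) and an adjusted p of 0.0371 by edgeR. The blocked call needed replicates 1 and 2, in edgeR fits of the remaining 4 libraries. Without both libraries of replicate 1 the adjusted p was 0.266, without those of replicate 2 it was 0.127, and without those of replicate 3 it was 0.000596. The log2 fold change was 0.284, 0.338 and 0.28 in that order, with an SE of 0.115, 0.112 and 0.0491. These fits called 266, 639 and 3569 genes in all, the last being 30% of those tested. Over 18 alternative fits the log2 fold change stayed between 0.20 and 0.38, and 4 of them, each with the block, called the gene.

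No other gene of the family was called in either edgeR fit on all 6 libraries. In the unblocked edgeR test 0 of the 8 genes passed, where 3.82% of the 11791 genes tested did; 1 of 8 had an unadjusted p under 0.05, against 19.8% of them. DESeq2 without the block called 0 of 8, against 8.98% of the 13683 genes to which it gave an adjusted p. In the blocked edgeR test 1 of 8 passed, against 11.6% of all genes. Likewise 1 of 8 had no overlap between the HS3A8-high and HS3A8-low libraries, a property that 28.7% of all genes shared. Each of these counts in the family was 0 or 1 gene.

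Other values moved in the same direction as Dnmt1. The summed level of 26 S phase genes, all of them detected in each group, was 9386 to 9963 CPM in HS3A8-high and 8579 to 8913 CPM in HS3A8-low, although by edgeR 0 of the 26 passed unblocked and 1 rose in the blocked fit (DESeq2 called 1 unblocked). The summed level of 20 erythroid genes (19 detected in each group) was 17410 to 18070 CPM in HS3A8-high and 13440 to 14760 CPM in HS3A8-low. Klf1, an erythroid transcription factor, was at 852.4, 1025 and 958.6 CPM in HS3A8-high and at 627.5, 801.5 and 791.7 CPM in HS3A8-low. Whether the Dnmt1 difference follows cycling or erythroid cell content was not tested. The Dnmt1 transcript is longer than 85.9% of those expressed, and with each library's trend over transcript length and GC content taken out, a correction chosen after the data had been seen, its log2 fold change was 0.27 (adjusted p of 0.0528 by edgeR) unblocked and 0.27 (adjusted p of 0.0301) blocked.

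Uhrf1, the RING-finger reader that brings DNMT1 to replicated DNA (ENSMUSG00000001228, plus strand of chr17:56303321-56323486), was at 542.5, 459.3 and 504.6 CPM in HS3A8-high and at 487.2, 467.7 and 421.3 CPM in HS3A8-low. The groups overlapped, since replicate 2 of HS3A8-high was below the 2 highest libraries of HS3A8-low. The log2 fold change was 0.10 (interval -0.12 to 0.33, edgeR adjusted p = 0.612; blocked adjusted p = 0.399). A difference of the size fitted for Dnmt1 lies inside this unblocked interval. With the block the Uhrf1 interval was -0.074 to 0.28, and the blocked Dnmt1 change of 0.289 lay just above it. The genes were not tested against each other. Within single libraries the ratio of Dnmt1 to Uhrf1 counts was 1.19, 1.18 and 1.05 in the high fraction, 1.03, 1 and 0.969 in the low fraction and 0.943, 1.08 and 1.07 in the control. These ratios, which were not tested, did not overlap between the sorted fractions.

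The Dnmt1 and Uhrf1 promoters are shown because these genes followed each other most closely of all pairs in the family across the libraries (Pearson r = 0.978 of log2 CPM over 9 libraries, a description in which control replicate 1 is the lowest library for both). RefSeq (GRCm38.p6) gives 3 start sites for Dnmt1 and 2 for Uhrf1, and the 250 bases before one start of each held an 8-base word of the kind bound by E2F factors, regulators of genes used in DNA replication. Capitals mark that word, GCGCGAAA in the Dnmt1 window on the minus strand of chr9:20952624-20952873 and its reverse complement TTTCGCGC in the Uhrf1 window on the plus strand of chr17:56304063-56304312. Both windows lie downstream of another start listed for the same gene, within the stretch transcribed from it.
Dnmt1: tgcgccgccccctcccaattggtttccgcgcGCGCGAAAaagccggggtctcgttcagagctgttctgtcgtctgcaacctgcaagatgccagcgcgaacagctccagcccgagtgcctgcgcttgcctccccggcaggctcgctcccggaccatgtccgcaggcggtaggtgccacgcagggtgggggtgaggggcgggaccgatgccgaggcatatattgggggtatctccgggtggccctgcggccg
Uhrf1: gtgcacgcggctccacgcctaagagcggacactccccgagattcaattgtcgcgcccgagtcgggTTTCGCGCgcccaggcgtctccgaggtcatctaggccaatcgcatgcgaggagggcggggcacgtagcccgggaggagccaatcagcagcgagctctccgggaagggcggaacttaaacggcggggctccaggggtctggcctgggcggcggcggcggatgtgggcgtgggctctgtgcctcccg
The words searched on both strands were TTTCCCGC, TTTCGCGC, TTTGCCGC and TTTGGCGC, chosen after the expression values were known. They occurred before 2 of the 8 genes, before 2.16% of the 27025 genes with a window, and before 6 of the 21 S phase genes that had one. The Dnmt1 window held 26 CpG sites with an observed-to-expected ratio of 0.89, and the Uhrf1 window 30 with a ratio of 1.004, where the median over 32851 windows was 6 sites. Of other words searched on both strands, with overlaps allowed, CCAAT (NF-Y) was in both windows and in 33.8% of all windows, and GGGCGG (SP1) was in both and in 32.7%. The words CCGGAAGT (ETS, 2.88% of all windows) and AGATAA, also with T as its first base (GATA, 16.6%), were in no window of the 8 genes. A match is a match of letters and says nothing of binding in these cells.

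Uhrf2, the paralog of Uhrf1 (ENSMUSG00000024817, plus strand of chr19:30030513-30093722), varied least of the family. Its levels were 96.33, 95.38 and 108.9 CPM in the high fraction, 100.7, 116 and 115.3 CPM in the low fraction and 118.1, 103.4 and 108.3 CPM in the control, from 95.4 to 118 CPM over the 9 libraries. HS3A8-low was the higher library in 3 of 3 pairs, but replicate 1 of HS3A8-low lay within the HS3A8-high range, and the log2 fold change of -0.17 (interval -0.40 to 0.06) had an edgeR adjusted p of 0.399, or 0.225 blocked. Its point estimate was opposite in sign to that of Uhrf1, and the difference between the paralogs was not tested.

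The de novo methyltransferases showed no difference that passed a test on all libraries. Dnmt3a (ENSMUSG00000020661, plus strand of chr12:3806007-3914443) was at 51.34, 33.02 and 34.52 CPM in HS3A8-high and at 64.98, 44.27 and 28.48 CPM in HS3A8-low. HS3A8-low was the higher library in pairs 1 and 2, and the lower in pair 3, in which the granulocyte and monocyte genes stood apart. The log2 fold change was -0.24 (interval -1 to 0.52, edgeR adjusted p = 0.733; blocked adjusted p = 0.458). Without both libraries of replicate 3, in a fit chosen after the data had been seen, it was -0.39 with an adjusted p of 0.0122 by blocked edgeR, and 2 of the 8 genes, Dnmt1 and Dnmt3a, were then called, where 30% of all genes tested were. Strand handling in the counting is not given in the sources used here, and 0.799% of the Dnmt3a exon length overlaps the antisense gene Dnmt3aos.

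Dnmt3b (ENSMUSG00000027478, plus strand of chr2:153649450-153687730) was at 44.56, 52.96 and 43.51 CPM in HS3A8-high and at 47.14, 54.6 and 39.66 CPM in HS3A8-low. The means were 47.01 ± 5.18 and 47.13 ± 7.47 CPM (SD, n = 3 each), and the log2 fold change was -0.03 with an interval of -0.39 to 0.33 (edgeR adjusted p = 0.933). Replicate 2 was the highest library in each fraction, so the spread lay between replicates and not between fractions.

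For Tet1 and Tet3 the means of the sorted fractions lay closer together than the SD of either fraction. For Tet2 the means (12.16 and 14.4 CPM) lay closer than the SD of HS3A8-low (4.47 CPM) but not that of HS3A8-high (0.857 CPM). Tet3 (ENSMUSG00000034832, minus strand of chr6:83362373-83459084) was the most abundant of the TET genes. It was at 50.96, 36.03 and 29.69 CPM in HS3A8-high and 55.97, 24.03 and 22.1 CPM in HS3A8-low. Replicate 1 was the highest library in both fractions, and the log2 fold change of 0.16 had an interval of -0.78 to 1.1 (edgeR adjusted p = 0.864; blocked 0.25, adjusted p = 0.357).

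Tet2 (ENSMUSG00000040943, minus strand of chr3:133463679-133545139) was at 12.3, 12.94 and 11.24 CPM in HS3A8-high and at 15.09, 9.628 and 18.48 CPM in HS3A8-low. The HS3A8-high libraries lay inside the range of the other fraction, and the log2 fold change was -0.27 (interval -0.90 to 0.36, edgeR adjusted p = 0.637). Its promoter window (minus strand of chr3:133544391-133544640) was the richest in CpG of the family, with 51 sites, an observed-to-expected ratio of 1.187 and 83.6% G and C.

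Tet1 (ENSMUSG00000047146, minus strand of chr10:62804570-62908996) was the lowest, with 111, 64 and 23 counts in HS3A8-high and 205, 68 and 39 counts in HS3A8-low. In CPM these were 6.966, 4.814 and 1.521 against 11.99, 4.779 and 3.277. The means differed by a ratio of 0.664, but the libraries of a fraction lay far apart: against the mean log2 level of the other 2 libraries of its fraction, replicate 1 stood at 1.31 and replicate 3 at -1.84 in the high fraction, with 1.56 and -1.18 in the low one. The log2 fold change of -0.62 had an interval of -2.21 to 0.96 (edgeR adjusted p = 0.669; blocked adjusted p = 0.242), the widest of the family, and with 23 to 205 counts a library it leaves the direction undetermined.

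Dnmt3a, Tet1 and Tet3 shared this pattern: replicate 1 was the highest library in both fractions, above the mean log2 level of the other 2 libraries of its fraction by 0.60 and 0.87 for Dnmt3a and by 0.64 and 1.28 for Tet3. Their transcripts are longer than 97.6%, 99.6% and 98.6% of those expressed, and in these 2 libraries the longest quintile of all transcripts was also raised, by medians of 0.29 and 0.26. Tet2, with a transcript longer than 97.1% of those expressed, was not highest in replicate 1 of either fraction, and these libraries stood at 0.03 and 0.18 over the mean of the other 2. With the trend over transcript length and GC content taken out in the blocked edgeR fit, the log2 fold changes were -0.26 for Dnmt3a, -0.77 for Tet1 and 0.21 for Tet3 (adjusted p = 0.209, 0.16 and 0.424).

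**Figure D2:**
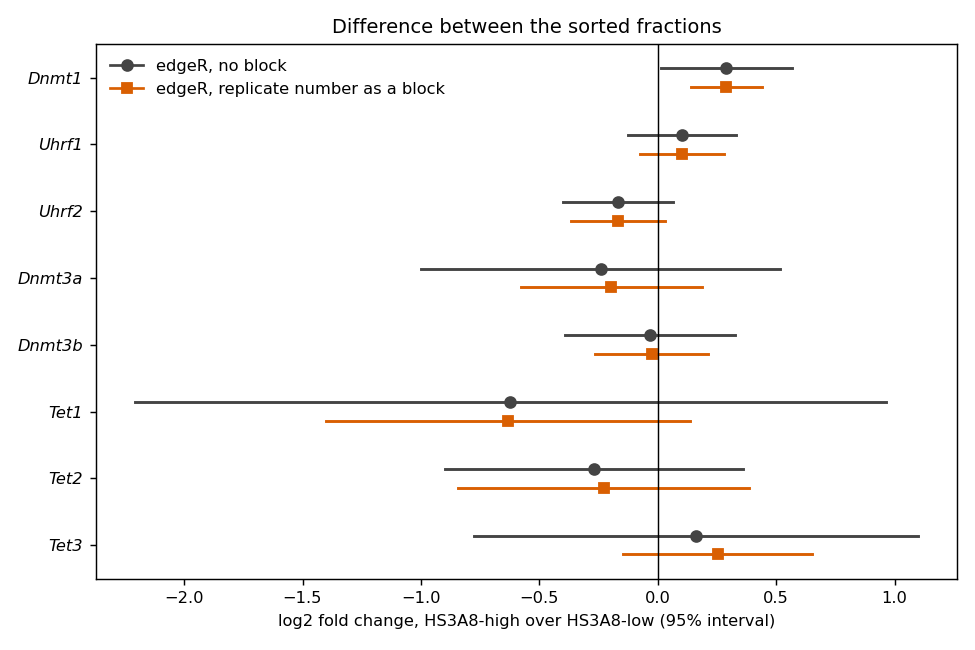
Log2 fold change of HS3A8-high over HS3A8-low (x axis) for each of the 8 genes, with 95% intervals, from edgeR fits without a block and with the replicate number as a block. The interval of Dnmt1 lies above 0 in both fits (0.014 to 0.565 and 0.139 to 0.439), and all others cross 0, that of Tet1 being the widest (-2.21 to 0.96 without the block).

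The MPB49 control asked where MEPs sorted without regard to HS stand. None of the 8 genes passed in HS3A8-high against the control, where 0.0174% of 11486 genes did, nor in HS3A8-low against the control, where 0% of 11878 genes did. At an unadjusted p under 0.05 there were 0 of the 8 genes and 562 and 673 of all genes by edgeR, and DESeq2 called 143 and 95 genes but 0 of the 8. Nor was there a gene of the family without overlap in either comparison, against 14.2% and 12.8% of all genes. Both comparisons share the 3 control libraries. Log2 fold changes of HS3A8-high over the control ran from -0.14 (Tet2) to 0.49 (Tet3), with 0.41 for Dnmt1 (interval -0.37 to 1.18). Those of HS3A8-low over the control ran from 0.01 (Uhrf2) to 0.55 (Tet1), with 0.09 for Dnmt1 (interval -0.66 to 0.83). Adjusted p-values by edgeR were at least 0.733 and 0.847.

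The wide Dnmt1 intervals came with 1 library, control replicate 1. The SE of Dnmt1 by edgeR was 0.327 for HS3A8-high and 0.318 for HS3A8-low against the control. Without that library it was 0.0956 and 0.113. Tet1 was the only gene of the family whose SE rose without it, from 0.544 to 0.587 and from 0.513 to 0.566. Dnmt1 was at 231.4, 530.4 and 538.2 CPM in the 3 controls (433.3 ± 175, SD, n = 3), and replicate 1 was far below every other library of the series. The other 2 controls lay within the HS3A8-high range. Uhrf1 (245.5, 490.7 and 502.5 CPM), Dnmt3b (22.38, 53.17 and 41.08) and Tet3 (17.02, 33.09 and 32.93) were lowest in the same library. Dnmt3a followed at 23.89, 47.81 and 36.24 CPM and Tet1 at 3.668, 4.781 and 5.281 CPM. Tet2 went the other way, at 19.19, 10.58 and 11 CPM, the highest value of the 9 libraries.

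Against the mean of the other 2 controls, the log2 ratio of replicate 1 was -1.21 for Dnmt1, -1.06 for Dnmt3b, -1.02 for Uhrf1, -0.95 for Tet3, -0.80 for Dnmt3a and -0.44 for Tet1, and it was 0.16 for Uhrf2 and 0.82 for Tet2. A deviation as low as that of Dnmt1 occurred in 3.85% of 9349 expressed genes, and one as low as that of Uhrf1 in 6.89%. In all, 5 of the 8 genes were at least 1.5-fold lower there, against 22.4% of expressed genes and 7 of the 26 S phase genes, whose median was -0.12. Long transcripts as a class were low in this library. The transcripts of Uhrf1 and Dnmt3b, both low here, are longer than 54.9% and 68.7% of those expressed. That of Tet2, which was high here, is longer than 97.1%. Whether the low values of the family follow transcript length was not tested. With the trend over transcript length and GC content taken out, the log2 fold change of Dnmt1 was 0.27 for HS3A8-high and -0.04 for HS3A8-low against the control (edgeR adjusted p = 0.751 and 0.983). Without the library, the log2 fold change of Dnmt1 was 0.11 for HS3A8-high and -0.22 for HS3A8-low against the control, neither of which passed (edgeR adjusted p = 0.999 and 0.6).

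**Figure D3:**
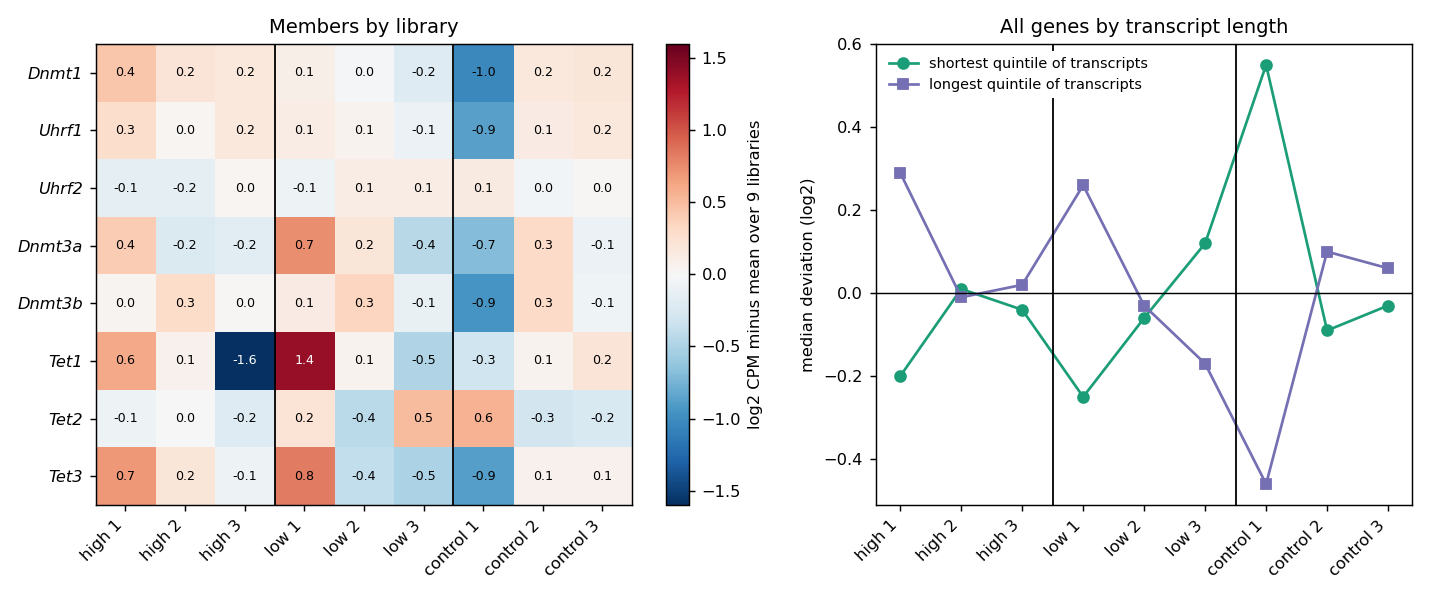
Left, log2 CPM of each gene minus its mean over the 9 libraries, by library, on a colour scale with the value printed. Right, the median deviation (log2) of all expressed genes in the shortest and the longest quintile of transcript length, by library. Control replicate 1 is below the mean for 6 of the 8 genes and has the shortest quintile at 0.55 and the longest at -0.46, and replicate 1 of both sorted fractions has the longest quintile at 0.29 and 0.26.

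Genes with the most similar profiles were listed for each member as a description over the same 9 libraries, which share depth, preparation and the low control library. For Dnmt1 they were Ddi2, Nfe2l2 and Scaf11 (Pearson r = 0.995 each). Those of Uhrf1 included Mtmr1 and Fbxo42 (0.993 and 0.992). Those of Dnmt3a were Rab43, Exoc2 and Srebf2 (0.968 to 0.965). A high r here says that profiles ran together over these libraries, nothing more. Those of Dnmt3b were Spag7, Wdr41 and Fkbp5 (0.976 to 0.972). Those of Tet1 were Ttc3, Stard4 and Hace1 (0.938 to 0.909), of Tet2 Trappc2, Pot1b and Tmem101 (0.954 to 0.919), of Tet3 Huwe1, Dyrk2 and Ptch1 (0.974 to 0.964) and of Uhrf2 Ier5, Gm16973 and Bcl10 (0.968 to 0.933). Within the family, Uhrf2 ran opposite to Tet3 (r = -0.868), and Dnmt3a ran with Tet3 (r = 0.835).

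Around the 8 enzymes, 61 further genes of the pathway were read in 5 roles, of which 53 were tested in HS3A8-high against HS3A8-low. By edgeR without the block 2 of the 53 rose and 0 fell, where 0.611% of all genes rose and 3.21% fell. By edgeR with the block 5 rose and 3 fell, where 3.32% rose and 8.27% fell. DESeq2 without the block called 6 of 54 higher and 2 lower, where 2.23% of all genes were higher and 6.75% lower. Its calls that neither edgeR fit made included Trim28, Mbd3 and Neil1. The median log2 fold change was 0.01 over these genes, -0.10 over the 8 enzymes and -0.03 over all genes tested. In neither comparison with the control did any of them pass by edgeR (0 of 53 each) or by DESeq2 (0 of 53 and 0 of 54).

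Both genes that rose in the unblocked edgeR test were among the 13 of S-adenosylmethionine and one-carbon supply. Mthfd1, a trifunctional enzyme of folate metabolism and the highest of its role at 267 CPM per kilobase, was at 1429, 1449 and 1426 CPM in HS3A8-high and at 965.4, 1049 and 936.7 CPM in HS3A8-low. The fractions did not overlap, with a log2 fold change of 0.52 (SE 0.0624, edgeR adjusted p = 0.0135; blocked 0.00649). Ahcy, which hydrolyses the S-adenosylhomocysteine left by every methyl transfer, was at 212.4, 216.1 and 212.3 CPM against 156.9, 161.1 and 142.7 CPM. It rose by a log2 fold change of 0.45 (SE 0.0793, edgeR adjusted p = 0.0345; blocked 0.0173). Leaving out single libraries ended the Ahcy call in each of 6 fits (adjusted p 0.0505 to 0.144) and that of Mthfd1 in 4 of 6 (0.0203 to 0.0776). Mtr, methionine synthase, passed with the block (log2 fold change 0.51, adjusted p = 0.0416; unblocked 0.174), at 130.7, 131.4 and 119.1 CPM against 108.8, 89.11 and 68.22 CPM. Of the 12 genes tested in this role, 9 had a positive and 3 a negative fold change.

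In excision and repair of oxidised bases, 12 of 13 genes were tested, and by edgeR 2 rose with the block and none passed without it. Tdg, the glycosylase that removes oxidised 5-methylcytosine, was at 146.9, 142.7 and 140.9 CPM in HS3A8-high and at 118, 111.8 and 107 CPM in HS3A8-low (log2 fold change 0.33, blocked edgeR adjusted p = 0.0358; unblocked 0.0802), and DESeq2 called it without the block (adjusted p = 0.0131). Lig3, the DNA ligase of this repair, was at 123.5, 93.95 and 89.14 CPM against 83.06, 73.86 and 57.22 CPM (0.49, blocked adjusted p = 0.0259; unblocked 0.206). For both the fractions did not overlap, but 25.1% of the Lig3 exon length overlaps Rffl on the other strand and 6.83% of that of Tdg overlaps Glt8d2, so their counts may include reads of those genes. Neil1, a glycosylase of the same repair, was called lower by unblocked DESeq2 and by neither edgeR fit (log2 fold change -0.87, adjusted p = 0.0378; edgeR 0.109, or 0.0515 blocked). Parp1, the most abundant of the role at 93.8 CPM per kilobase, had a log2 fold change of 0.15 (edgeR adjusted p = 0.464).

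Among the suppliers of TET cofactors and regulators of TET enzymes, 8 of 11 genes were tested, and by edgeR 3 fell with the block and none passed without it on all 6 libraries. Cxxc5, a CXXC-domain protein related to the TET2 partner CXXC4, was at 7.343, 3.611 and 4.298 CPM in HS3A8-high and at 31.88, 22.56 and 10.75 CPM in HS3A8-low. The fractions did not overlap, and the blocked log2 fold change was -2.06 (edgeR adjusted p = 0.0124; unblocked -2.12, 0.057). DESeq2 called it without the block (adjusted p = 9.25e-05), as did 1 of 6 unblocked edgeR fits that left out a library (0.0321 to 0.198). Spi1, encoding the myeloid factor PU.1, was at 4.958, 1.805 and 27.91 CPM against 20.06, 26.28 and 71.5 CPM (blocked log2 fold change -2.24, adjusted p = 0.0282; unblocked 0.363). Its highest library in each fraction was replicate 3, in which granulocyte and monocyte genes stood at 2000 and 5117 CPM. Idh1, which makes the 2-oxoglutarate that TET enzymes consume, was likewise highest in replicate 3 of both fractions, at 23.03, 22.64 and 37.96 CPM against 31.41, 29.8 and 57.22 CPM (blocked -0.51, adjusted p = 0.0405; unblocked 0.419). Idh2, the most abundant of the role at 95.3 CPM per kilobase, had a log2 fold change of -0.12 (edgeR adjusted p = 0.489).

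No gene passed either edgeR test among the 13 tested of 16 chromatin partners of the DNMT proteins. Nor did any of the 8 genes listed under readers of methylated DNA, the list in which Mbd3 was placed. Whether each of these 8 binds methylated DNA was not examined. Pcna, the replication clamp to which DNMT1 binds, was at 387.1, 417.9 and 425.5 CPM in HS3A8-high and at 370.9, 408.7 and 471.5 CPM in HS3A8-low. The groups overlapped, and the log2 fold change was -0.05 (edgeR adjusted p = 0.827). Mbd3, a subunit of the NuRD complex, was at 243.1, 258.2 and 232.2 CPM against 203.4, 199 and 197.5 CPM, with no overlap, and its log2 fold change of 0.26 had an edgeR adjusted p of 0.116, or 0.058 blocked, while unblocked DESeq2 called it (adjusted p = 0.0463). Trim28, a corepressor, was likewise called higher by unblocked DESeq2 and by neither edgeR fit (log2 fold change 0.34, adjusted p = 0.0446; edgeR 0.124, or 0.0543 blocked).

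**Figure D4:**
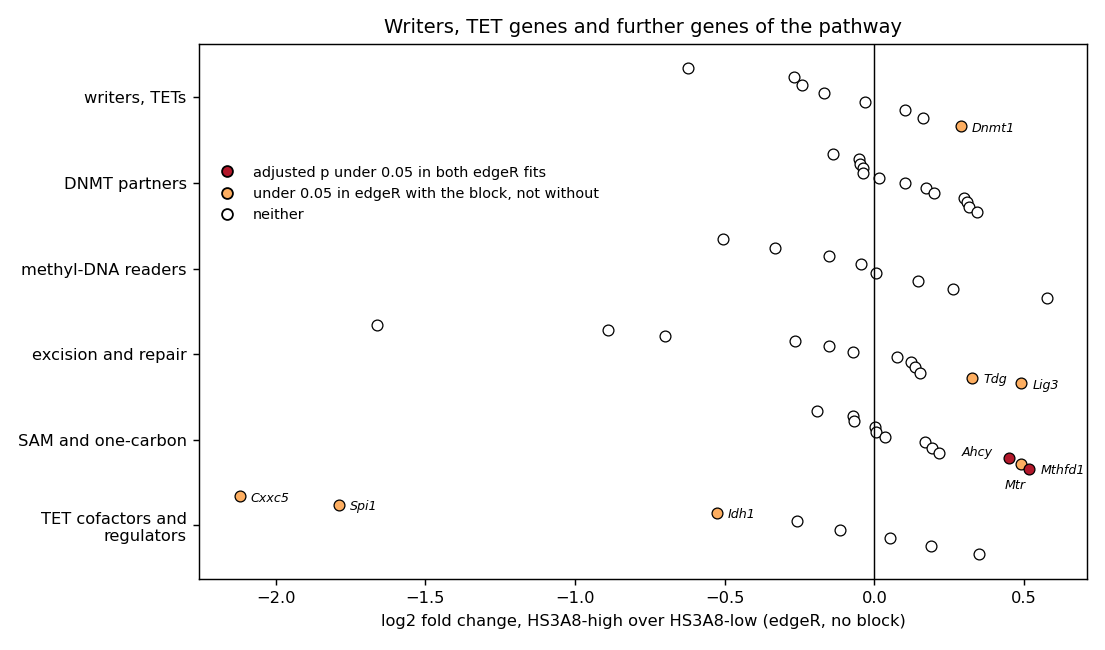
Log2 fold change of HS3A8-high over HS3A8-low without the block (x axis) for the 8 enzymes and the 53 further pathway genes tested, 1 point per gene, by role. Ahcy and Mthfd1 are filled dark because they passed in both edgeR fits, and the genes in light fill (Dnmt1, Tdg, Lig3, Mtr, Idh1, Cxxc5 and Spi1) passed in edgeR with the replicate block and not in edgeR without it.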

How the data were processed

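Bulk RNA-seq of sorted mouse MEPs was available for 9 libraries. Per the labels and the study's methods, the authors made low-input libraries, mapped reads to mm10 with STAR (version 2.5 in the submitters' processing notes, which also name HTSeq 0.6.1) and deposited whole-number counts per gene, without normalization. The annotation release and strand setting are not given in the sources used here. Identifiers were joined to GENCODE M21 on GRCm38, the build mm10 names, and 34490 of 35275 matched a symbol.

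Counts were tested in R 4.3.3 with edgeR 4.0.16 (TMM, filterByExpr, glmQLFTest, Benjamini-Hochberg over all genes, adjusted p under 0.05), with the 6 libraries of each comparison in a fit. The 3 replicates of a group are separate samples, and without the block the p-values set a difference against the spread between them. With the block they set it against the spread left after the replicate number is taken out. DESeq2 1.42.0, its size factors, no filter, all 9 libraries in 1 fit, the replicate block and left-out libraries were alternatives. Further fits were chosen after seeing the data: the block without each replicate number, DESeq2 with the block, and a correction for transcript length and GC content by splines per library, for which 11740 of 11791 genes (99.6%) had values. Counts were simulated for HS3A8-high against HS3A8-low over 11791 genes, with a spread between pairs that was set and not estimated from these libraries. With paired libraries, unblocked edgeR recovered 0 of 108 changes of 2-fold and 71 of 92 of 4-fold. Blocked edgeR recovered 93 and 91, with 3 false calls. With unpaired libraries, both fits recovered 94 and 92, with 10 false calls unblocked and 9 blocked. The outcome follows from the spread that was set and does not show which fit suits these libraries. Deviations from the group mean over 11791 genes correlated where a high and a low library bore the same number (r = 0.518, 0.346 and 0.515; different numbers -0.484 to 0.114), so these were taken as pairs. The study's figure legend gives 3 individual mice for HS3A8-low against HS3A8-high MEPs. It does not say that both fractions of a number came from 1 mouse, so the pairing was taken from the data. The control numbers did not pair (r = -0.361 to 0.0186).

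The 8 members and the 12 lists were chosen with earlier results of these data known. Beside the members, pathway genes were named where they passed either edgeR test or had the highest CPM per kilobase of their role, and similar genes were the 3 with the highest r among genes of at least 5 CPM; for Uhrf1, 1 of the 3 is not reported here. Mbd3, Pcna, Parp1 and Idh2 are named by the second rule; Trim28 and Neil1 were added after their DESeq2 values were seen. Promoters are RefSeq windows on GRCm38.p6.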

Additional observations from a re-analysis of the deposited data

How the results depend on the processing

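The limits are those of 3 libraries a group: an interval for a gene such as Tet1 or Tet3 spans both directions. The control comparisons of Dnmt1 depend on 1 control library. Apart from left-out libraries, 118 of 120 log2 fold changes of the 8 genes under other normalization, filter, test, sample choice or block kept their direction. The exceptions were Uhrf2 in HS3A8-low against the control, -0.01 with DESeq2 size factors and -0.006 with the DESeq2 test. Of 64 values from alternatives chosen after seeing the data, 59 kept it.

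With the replicate block in HS3A8-high against HS3A8-low, 1 of the 8 genes (Dnmt1) and 1367 genes in all were called, against 0 and 451 without it. DESeq2 called 1229 genes unblocked, and 1840 with the block, of them 1 of the 8. Blocked fits without replicate 1, 2 or 3 of both fractions called 266, 639 and 3569 genes and 0, 0 and 2 of the 8, with Dnmt3b at 0.032 without replicate 1 and Tet2 at 0.042 without replicate 3. The correction for GC content and length called 916 genes, and 1865 with the replicate block, 1 of them in the family. It gave 7 genes in HS3A8-high against the control, and turned Dnmt3a there to -0.12 and, in HS3A8-low against the control, Dnmt1 to -0.04 and Tet2 to -0.098. For HS3A8-high against the control, where the main test called 2 genes, DESeq2 called 143, no count filter 9, all 9 libraries in 1 fit 32 and the block 0. DESeq2 called 95 in HS3A8-low against the control, where edgeR called 0. The control numbers were no pairs, and the block called none of the 8 genes in either control comparison.

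Leaving out libraries gave 0 (without HS3A8-low replicate 2) to 748 genes (without replicate 3) in HS3A8-high against HS3A8-low and 0 to 5 in HS3A8-high against the control, and called none of the 8 genes in any of these fits. In HS3A8-high against HS3A8-low the log2 fold changes then ran from -0.488 to 0.116 (Dnmt3a), -0.138 to 0.109 (Dnmt3b), -1.115 to 0.133 (Tet1), -0.466 to 0.017 (Tet2) and -0.085 to 0.75 (Tet3). In HS3A8-high against the control they ran from -0.078 to 0.416 (Dnmt3a), -0.511 to 0.494 (Tet1) and -0.275 to 0.178 (Tet2). In HS3A8-low against the control they ran from -0.218 to 0.341 (Dnmt1), -0.115 to 0.366 (Uhrf1), -0.05 to 0.074 (Uhrf2), 0 to 0.57 (Dnmt3b), -0.183 to 0.977 (Tet1), -0.283 to 0.415 (Tet2) and -0.265 to 0.666 (Tet3). The causes of these changes were not tested.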
